A study of Bos taurus with 44 samples.

Results

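The comparison described here set 3 cows classed as high in cell-mediated immunity against 3 classed as low. Its 24 arrays, from 6 cows, were taken by the group and cow number in the sample labels, out of 44 arrays from 11 cows in the whole series, and no measured value was used to choose them. The animals were Holstein cows, all immunized with antigens meant to call forth antibody and cell-mediated responses, and venous blood was taken 6 days later. Mononuclear cells were isolated from it on a Percoll gradient and received no further treatment. The labels class the cows as high-DTH or low-DTH, where DTH is the usual short form of delayed-type hypersensitivity. The high group held a cow that the labels name as high for both antibody and DTH, called the shared cow below, with 4 arrays, and high-DTH cows 2 and 3, with 5 and 4 arrays. The low group held low-DTH cows 1, 2 and 3, with 4, 4 and 3 arrays. Nothing in the labels gives a cow's age, lactation or identity, the strength of its response or the antigens, and the class of each cow as high or low is all that is known of the trait.

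In a delayed-type reaction, T cells that recognise an antigen release cytokines and chemokines, and these draw in and activate monocytes, macrophages and further T cells at the site. T cells read antigen through a receptor that signals by way of the CD3 chains, and they see peptides held by MHC class I or class II molecules on other cells. Mononuclear cells of cattle blood are mainly T cells, B cells and monocytes, including a T cell type with gamma delta receptors that is common in cattle.

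Each array carried RNA of 1 cow and a shared RNA standard of the same kind of cells, in 2 dyes. The measured value is a log ratio, read here as log2 of cow over standard, so that a difference of 1 between groups would be a factor of 2. The base and the direction are not stated in the sources used here, and with the opposite direction every higher and lower below would swap. Because the standard was made of the same kind of cells, the ratios give no absolute level, and whether RNA of T cells, B cells or monocytes was present could not be read from them. The array held 141 named genes, most of immune function, and each was averaged over its 8 or 16 spots, over arrays of 1 dye orientation and then over both orientations to 1 value per cow. A further 424 spots without a single gene symbol were tested 1 by 1 in the same fit, which gave 565 features.

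Among the arrays of the DTH cows a single array stood apart from the rest. Array 3 of low-DTH cow 3 had r = −0.58 and r = −0.54 across spots with arrays 1 and 2 of the same cow, which had r = 0.90 with each other. Its mean r with arrays of other cows in the series was −0.20, whereas that of the other 23 arrays lay between 0.05 and 0.29. Per the labels' dye assignment this array carried the same dye orientation as array 2. Whether its sign is turned is not stated anywhere, so it was kept as deposited, and results that rest on it are also given with its sign turned or with it left out. Within high-DTH cow 3 the correlation r was −0.24 for arrays 2 and 3 and −0.02 for arrays 2 and 4. The same pairs of low-DTH cow 2 had r = 0.06 and 0.13. The values of both cows thus also average arrays that differed. Spot ratios were spread more widely on arrays 3 to 5 (median SD 0.51) than on arrays 1 and 2 (median SD 0.32). The 16 spots for vapA, a bacterial control gene, averaged −0.05 ± 0.08 in the high and 0.09 ± 0.10 in low-DTH cows (SD, n = 3 each). The high minus low difference of this control was thus −0.14.

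High-DTH cows had higher ratios than low-DTH cows for CD3 complex genes, 3 chemokine receptors, the cytokines IL1A and IL1B and the chemokine CCL3. Ratios were lower for immunoproteasome subunits, the peptide-loading chaperone CALR and the B cell gene CD40. None of these differences passed the test across features. In limma's moderated test with Benjamini-Hochberg adjustment, 0 of 565 features (percent called 0) had an adjusted p under 0.05, and the smallest adjusted p was 0.488, for CD3D. At an unadjusted p under 0.05 stood 55 features (9.73%), of which 29 (5.13%) were higher and 26 (4.60%) lower, and 12 of them were named genes (8.51% of 141), with 9 higher and 3 lower. The median standard error (SE) of a difference was 0.11, and the 95% interval reached a median of 0.27 to either side of it. In 88 of the 141 genes the interval lay within 0.5 on either side of 0, while in 129 it included 0.

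Differences as a whole leaned to lower ratios in high-DTH cows. Of the named genes 56 (39.7%) were higher and 85 lower, against 37.3% higher among all 565 features, and the median difference was −0.03. This lean depended on how each array was centred: with every array set to a median of 0 the share of higher genes was 50.4%, and with quantile normalization 46.1%. Of the 141 genes, 22 (15.6%) had all 3 cows of 1 group above all 3 of the other, against 74 of all 565 features (13.1%, with 4.07% higher and 9.03% lower). Among the 22, 12 (8.51%) were higher and 10 (7.09%) lower in high-DTH cows. With arrays centred on their medians 24 genes did not overlap, of which 19 were higher and 5 lower. No share over all features is given for this setting, and centring moves every feature. With 3 cows in each group, the exact permutation test (two-sided) of such a gene gives p = 0.1, the smallest it can reach.

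The 24 named genes of smallest p had adjusted p-values between 0.488 and 0.585 in limma, and 17 of them did not overlap between the groups. Lack of overlap is partly built in, since these 24 genes were chosen by p on the same values. They are described below by role together with the 5 other genes that did not overlap. For each gene the 3 high values are given in the order shared cow, high-DTH cow 2 and high-DTH cow 3, the 3 low values in the order of the cow numbers, and the difference as high minus low ± SE with its 95% interval.

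**Figure D1:**
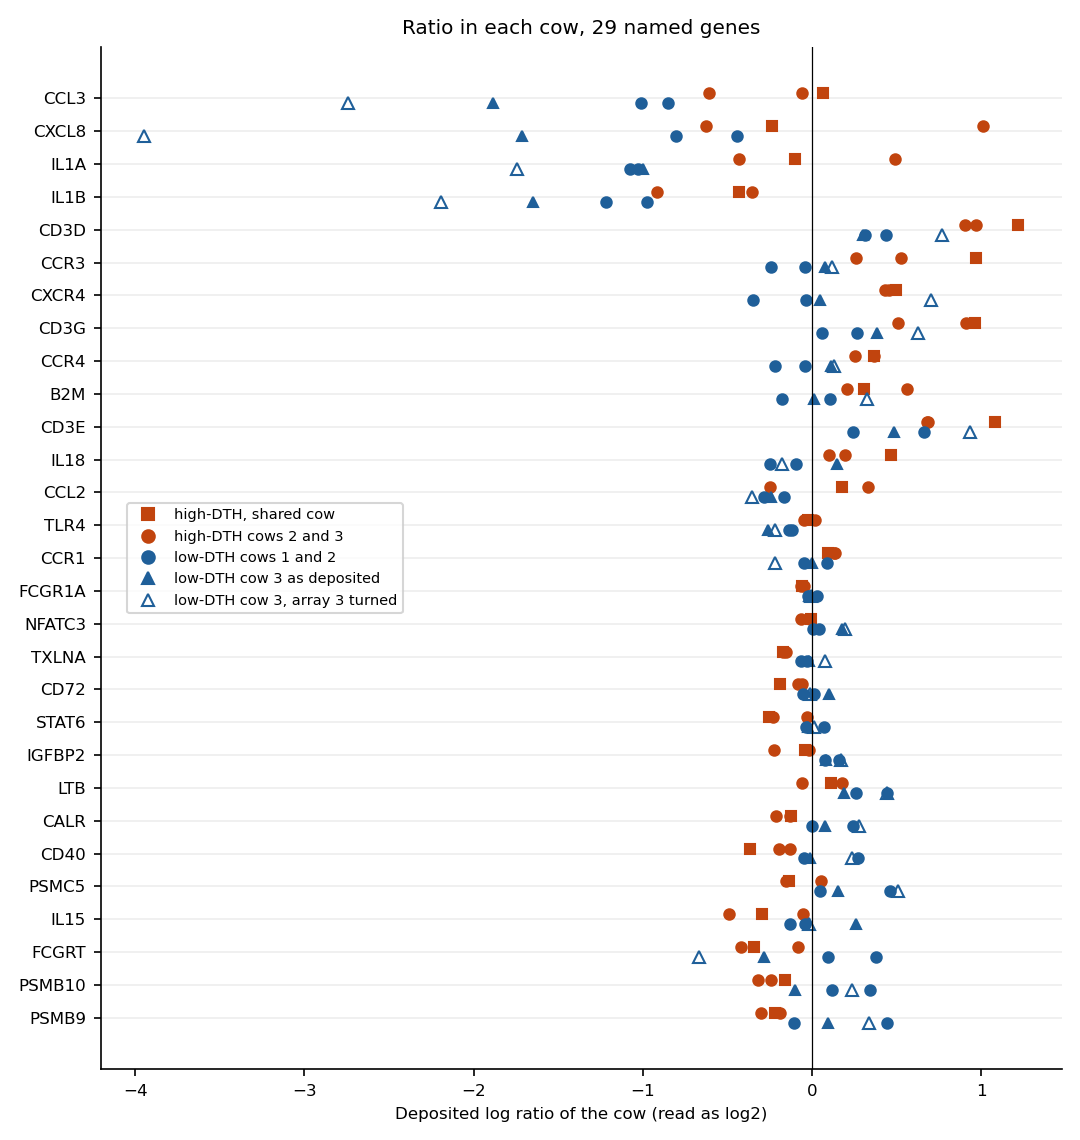
Ratio of each of 6 cows (horizontal axis, deposited log ratio read as log2) for 29 named genes (vertical axis), ordered by the high-DTH minus low-DTH difference, with high-DTH cows in orange, low-DTH cows in blue, and low-DTH cow 3 also as an open triangle with its array 3 turned in sign. For CD3D the high cows sit between 0.90 and 1.22 and the low cows between 0.30 and 0.44, while the open triangle at 0.77 lies closer to the high cows.

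The CD3 chains pass the signal of the T cell receptor into the cell. All 4 measured chains had higher mean ratios in high-DTH cows, as did 37.3% of all features. CD3D, the delta chain, was at 1.22, 0.90 and 0.97 in the high-DTH cows and 0.44, 0.31 and 0.30 in the low-DTH cows. Every high cow lay above every low cow, and the shared cow was the highest of the 6. The difference was 0.68 ± 0.11 (0.40 to 0.96), or 1.60-fold if the values are log2. CD3G, the gamma chain, was at 0.96, 0.91 and 0.51 against 0.26, 0.06 and 0.38, without overlap, with high-DTH cow 3 the lowest of the high group and a difference of 0.56 ± 0.16 (0.18 to 0.94). CD3E, the epsilon chain, was at 1.08, 0.68 and 0.68 against 0.66, 0.24 and 0.49. Here high-DTH cow 2 and low-DTH cow 1 were only 0.02 apart, and the difference was 0.35 ± 0.16 (−0.05 to 0.75). CD247, the zeta chain, overlapped, with 0.73, 0.45 and 0.19 against −0.11, −0.39 and 0.87 and a difference of 0.33 ± 0.34 and with low-DTH cow 3 the highest of the 6 cows. In a bulk sample of cells, fewer cells of a type and less RNA of the gene per cell cannot be told apart.

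In the bovine reference annotation (ARS-UCD2.0) the genes CD3G, CD3D and CD3E are neighbours, with CD3D next to both, while no spot of the array was named for more than 1 of them. The mean of the 4 chains was between 0.59 and 1.00 in the high and between 0.06 and 0.51 in the low cows. The median difference of the 4 was 0.45, beside −0.03 for all named genes, and 2 of 4 had an unadjusted p under 0.05, beside 9.73% of all features. Over arrays 1 and 2 the median was 0.37 and over arrays 3 to 5 it was 0.77. These values rest partly on the array that stood apart. On that array CD3D was at −0.94, against 0.84 and 0.47 on the other arrays of low-DTH cow 3. With it turned, low-DTH cow 3 stood at 0.77 for CD3D, 0.63 for CD3G and 0.93 for CD3E. CD3D then still had no overlap, with a difference of 0.52 ± 0.15, whereas CD3G (0.48 ± 0.19) and CD3E (0.20 ± 0.21) overlapped.

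Beside the CD3 chains, other genes of T cells were on the array. The list of T cell identity and costimulation genes had 9 measured members, of which 6 were higher and 3 lower, with a median of 0.05, 0 without overlap and 0 at an unadjusted p under 0.05. Of all features 37.3% were higher, 13.1% did not overlap and 9.73% had such a p. CD5, a receptor on all T cells and some B cells, differed by 0.19 ± 0.15, and CD69, an early activation marker, by 0.23 ± 0.27 with low-DTH cow 3 at 1.11 the highest of all 6. CD4, the coreceptor of helper T cells, was at 0.23, 0.14 and 0.09 against 0.09, −0.06 and 0.27 and differed by 0.05 ± 0.11. The costimulatory receptor CD28 differed by 0.05 ± 0.08, its inhibitory relative CTLA4 by −0.08 ± 0.09, CD27 by −0.10 ± 0.10, and CD40LG, the T cell ligand of CD40, by 0.0064 ± 0.10. For CD28 and CD40LG the 95% intervals (−0.15 to 0.25 and −0.22 to 0.24) lie below the difference in ratio seen for CD3D. Whether their spots had signal above background is unknown, so a difference in expression is not excluded. CD163L1, which marks gamma delta T cells in cattle and was the sole measured gene of its list, was at 0.98, 0.26 and 0.09 against −0.48, −0.27 and 0.71, a difference of 0.45 ± 0.37 whose interval includes 0 (−0.45 to 1.36). High and low cows both covered a wide range of it, with the shared cow and low-DTH cow 3 at the top.

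Receptors for chemokines guide leukocytes to tissue, and 6 of 7 measured members had higher mean ratios in high-DTH cows (37.3% of all features did), 4 of them without overlap (4.07% of all features were higher without overlap). CXCR4, the receptor of the homing chemokine CXCL12, was at 0.50, 0.43 and 0.46 in the high-DTH cows and −0.35, −0.03 and 0.05 in the low-DTH cows. The high cows were within 0.07 of each other, and the difference was 0.58 ± 0.12 (0.27 to 0.88). CCR4, found on helper T cells of type 2 and on skin-homing T cells, was at 0.37, 0.37 and 0.25 against −0.04, −0.22 and 0.11, a difference of 0.38 ± 0.11 (0.11 to 0.65). CCR3, an eotaxin receptor also found on some type 2 T cells, was at 0.97, 0.52 and 0.26 against −0.04, −0.24 and 0.08. Its shared cow stood well above the other high cows, and without that cow the difference was 0.46, against 0.65 ± 0.20 with it. CCR1, a receptor of CCL3 and CCL5, was at 0.09, 0.13 and 0.14 against 0.09, −0.04 and −0.00019, a gap of under 0.01 between the groups.

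The 3 remaining receptors were near 0, with 0.07 ± 0.13 for CCR7, which guides T cells into lymph nodes, 0.03 ± 0.10 for the CXCL8 receptor CXCR2 and −0.01 ± 0.09 for the gut-homing receptor CCR9. The list as a whole had a median of 0.11, and 3 of 7 members had an unadjusted p under 0.05, beside 9.73% of all features. Over arrays 3 to 5 alone the median was 0.23, with the same 6 to 1 count. Its mean over the 7 genes lay between 0.23 and 0.31 in the high and between −0.06 and 0.06 in the low cows. With array 3 of low-DTH cow 3 turned, this cow's mean was 0.15, still below the high cows, but its CXCR4 ratio was 0.71, above all 3 high cows, and the difference of CXCR4 was 0.36 ± 0.27. Turning that array moved CCR4 and CCR3 little (0.37 ± 0.11 and 0.64 ± 0.20), since both genes were close to 0 on it. CCR3 and CCR1 are neighbours in the reference annotation, with no other protein-coding gene between them. With arrays as the unit of the test and the cow as a random block, CCR4 and CCR3 were the 2 features called, at limma adjusted p = 0.0423 and 0.0386. Arrays are repeats of 6 cows, and with 1 value per cow neither was called (adjusted p = 0.494 for both).

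**Figure D2:**
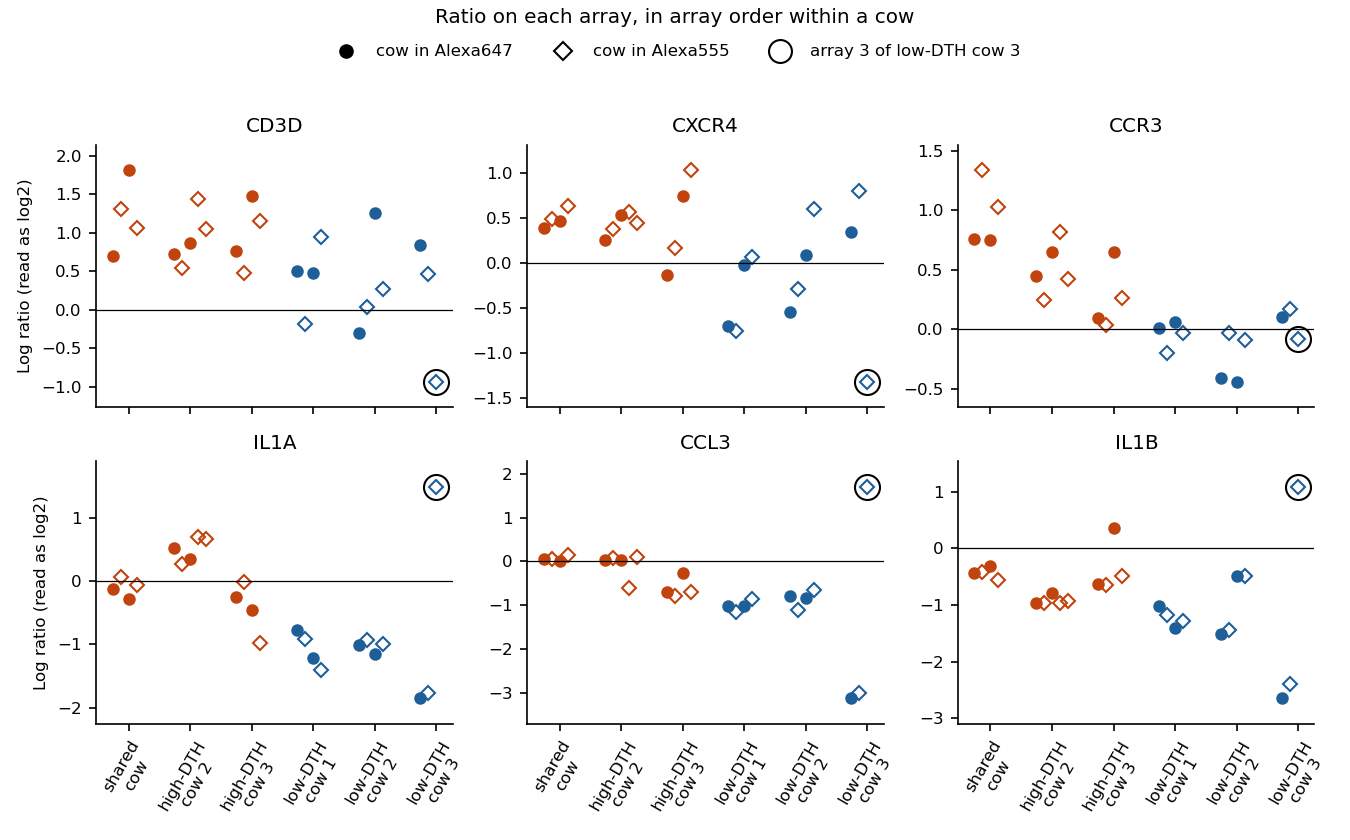
Ratio on each of 24 arrays (vertical axis, read as log2) for CD3D, CXCR4, CCR3, IL1A, CCL3 and IL1B, with arrays in number order within each cow, filled circles where the cow was labelled with Alexa647, open diamonds where it was labelled with Alexa555, and a ring around array 3 of low-DTH cow 3. The ringed array lies on the opposite side of 0 from both other arrays of its cow in all 6 genes, and for CCR3 it is close to 0.

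Chemokines are secreted proteins that draw leukocytes to a site. CCL3, which attracts monocytes and T cells, was at 0.07, −0.06 and −0.61 in the high-DTH cows and −1.01, −0.85 and −1.89 in the low-DTH cows. All ratios of the low cows were below those of the high cows, and low-DTH cow 3 was far below the others. The difference was 1.05 ± 0.32 (0.28 to 1.82). CXCL8, the neutrophil attractant interleukin 8, was at −0.23, 1.01 and −0.62 against −0.44, −0.81 and −1.71. High-DTH cow 2 was the sole cow above 0, high-DTH cow 3 lay below low-DTH cow 1, and the difference of 1.04 ± 0.50 had an interval of −0.18 to 2.26. CCL2, a monocyte attractant spotted as 2 clones (0.40 and 0.24), was at 0.18, 0.33 and −0.25 against −0.17, −0.28 and −0.24, where high-DTH cow 3 lay among the low cows, and differed by 0.32 ± 0.16.

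Of the 7 measured ligands 4 were higher and 3 lower, with a median of 0.10, 1 without overlap and 1 at an unadjusted p under 0.05. Of all features 37.3% were higher, 4.07% were higher without overlap and 9.73% had such a p. Over arrays 3 to 5 alone 3 were higher and 4 lower, with a median of −0.08. CCL20 differed by 0.10 ± 0.11, CCL8 by −0.09 ± 0.09, XCL1 by −0.06 ± 0.09 and the T cell chemokine CCL5 by −0.05 ± 0.14. The 2 inflammatory ligands of largest difference varied strongly across arrays of low-DTH cow 3. CXCL8 was at −3.86 and −3.61 on arrays 1 and 2 and at 4.46 on array 3, and CCL3 at −3.12, −3.01 and 1.70. With array 3 turned the differences were 1.78 ± 1.02 for CXCL8 and 1.33 ± 0.54 for CCL3. Without low-DTH cow 3 they were 0.67 and 0.73, with the same sign.

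The interleukin 1 genes encode cytokines that start fever and local inflammation, and IL1A and IL1B are made mainly by monocytes and macrophages. IL1A was at −0.10, 0.49 and −0.43 in the high-DTH cows and −1.08, −1.03 and −0.996 in the low-DTH cows. The low cows were nearly equal while the high cows spread over 0.92, and the difference was 1.02 ± 0.23 (0.46 to 1.57). IL1B was at −0.43, −0.91 and −0.35 against −1.22, −0.98 and −1.65, with high-DTH cow 2 only 0.06 above low-DTH cow 2 and a difference of 0.72 ± 0.22 (0.17 to 1.26). All 6 cows had IL1B ratios below 0, so both groups stood below the standard.

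The small spread of IL1A among the low cows came from averaging opposite arrays. In low-DTH cow 3, IL1A was at −1.85 and −1.76 on arrays 1 and 2 and at 1.49 on array 3. With array 3 turned this cow stood at −1.74, the SD of the low cows was 0.40 instead of 0.04, and the difference was 1.27 ± 0.30. IL1B moved to 0.90 ± 0.35. Both genes had no overlap as deposited, turned and with the array left out. Without low-DTH cow 3 altogether the differences were 1.04 and 0.53. In the reference annotation IL1A and IL1B lie on the same chromosome with 1 protein-coding gene between them.

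The other 4 genes of the interleukin 1 list overlapped between the groups. IL18, a cytokine of the same family that promotes interferon gamma, was at 0.47, 0.20 and 0.10 against −0.10, −0.25 and 0.15, where low-DTH cow 3 lay above high-DTH cow 3, and differed by 0.32 ± 0.15. It had no overlap with the odd array turned (0.43 ± 0.11). CASP1, the protease that activates IL1B and IL18, differed by −0.25 ± 0.30, its relative CASP4 by −0.24 ± 0.18 and the antagonist IL1RN by −0.15 ± 0.30. The list had 3 of 6 genes higher (37.3% of all features were) and 3 lower, and its median was 0.09. Without overlap were 2 of its genes, both higher, beside 4.07% of all features. With the array turned 4 were higher, with CASP1 at 0.12 ± 0.22, while over arrays 3 to 5 alone 2 were higher and 4 lower, with a median of −0.39. The mean of the list was between −0.44 and −0.32 in the high and between −0.69 and −0.51 in the low cows.

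MHC class I molecules show peptides from inside the cell, which the proteasome cuts, TAP carries and chaperones load. Of the 7 genes of the list 6 had lower and 1 had higher mean ratios in high-DTH cows, with a median of −0.26. Among all features 37.3% were higher, which leaves most lower. At an unadjusted p under 0.05 stood 4 of 7, beside 9.73% of all features. Without overlap were 3 lower genes and 1 higher gene, beside 9.03% and 4.07% of all features. PSMB10, a catalytic subunit of the immunoproteasome, was at −0.16, −0.24 and −0.32 in the high-DTH cows and 0.12, 0.34 and −0.10 in the low-DTH cows. Low-DTH cow 3 came within 0.06 of the shared cow, and the difference was −0.36 ± 0.13 (−0.68 to −0.04). PSMB9, another such subunit, was at −0.22, −0.30 and −0.19 against −0.10, 0.45 and 0.09, with low-DTH cow 2 the highest and a difference of −0.38 ± 0.15 (−0.75 to −0.01). The third subunit PSMB8 overlapped, with 0.02, −0.14 and 0.12 against 0.32, 0.67 and −0.09 and a difference of −0.29 ± 0.20.

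Low-DTH cow 2 had the highest ratio of the 6 cows for all 3 immunoproteasome subunits. Its arrays differed, with PSMB9 at 0.18 and PSMB10 at 0.09 over arrays 1 and 2. Over its later arrays they were at 0.71 and 0.60. CALR, a chaperone of the loading complex, was at −0.12, −0.13 and −0.21 against −0.00018, 0.25 and 0.08, without overlap, and differed by −0.26 ± 0.10 (−0.50 to −0.02). TAPBP, which holds class I molecules at the transporter, differed by −0.14 ± 0.09 and the transporter subunit TAP2 by −0.14 ± 0.10, both with overlap. PSMC5, a proteasome cap subunit outside this list, was at −0.14, 0.05 and −0.15 against 0.05, 0.46 and 0.15 and differed by −0.30 ± 0.14.

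B2M, the light chain of class I molecules, was the exception. It was at 0.31, 0.56 and 0.21 in the high-DTH cows and 0.11, −0.18 and 0.01 in the low-DTH cows, without overlap, and differed by 0.38 ± 0.13 (0.06 to 0.70). With the odd array turned the difference of B2M was 0.27 ± 0.16 with overlap, whereas PSMB10 (−0.47 ± 0.09), PSMB9 (−0.46 ± 0.15) and CALR (−0.33 ± 0.10) stood further from 0 and still had no overlap. The mean of the 7 genes lay between −0.06 and −0.04 in the high and between 0.02 and 0.28 in the low cows. The counts of 6 lower and 1 higher were the same with quantile normalization, with arrays centred or scaled, with the array turned or left out, and over either set of arrays. All of these settings reuse the same cows. The median was between −0.33 and −0.23 under these settings, except over arrays 3 to 5 alone, where it was −0.08.

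**Figure D3:**
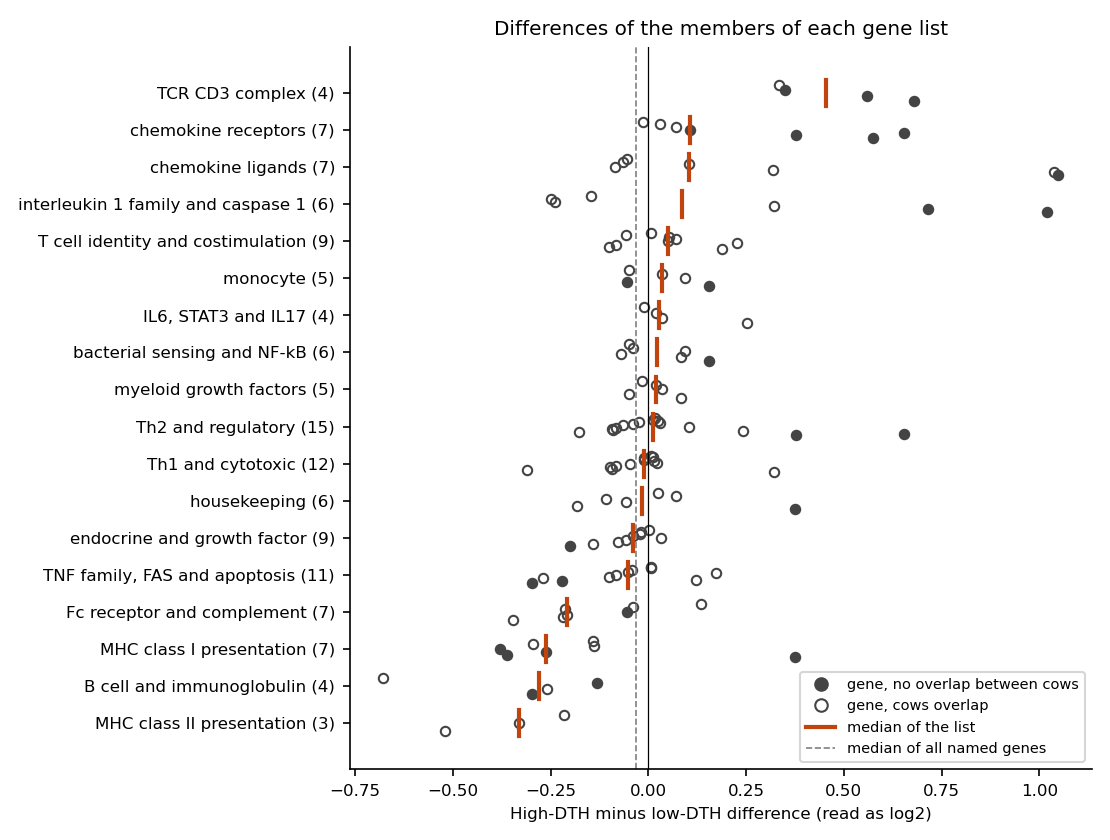
High-DTH minus low-DTH difference of single genes (horizontal axis, read as log2) for the 18 gene lists with at least 3 measured members (vertical axis, number measured in brackets), filled where the cows of both groups did not overlap, with the median of each list as an orange bar and the median of all 141 genes as a dashed line. The CD3 list has the highest median at 0.45 and MHC class II the lowest at −0.33, and the 2 points above 1 in the chemokine ligand list are CCL3 and CXCL8.

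Genes of B cells and of MHC class II, which B cells and monocytes carry to present antigen, had lower mean ratios in high-DTH cows throughout. Of the 4 B cell and immunoglobulin genes 4 were lower, with a median of −0.28, 2 without overlap and 0 at an unadjusted p under 0.05. Among all features 37.3% were higher, which leaves most lower, and 9.03% were lower without overlap. Over arrays 3 to 5 alone the 4 genes had a median of −0.11. CD40, the receptor by which T cells activate B cells, was at −0.37, −0.19 and −0.13 in the high-DTH cows and −0.05, 0.27 and −0.01 in the low-DTH cows. Low-DTH cow 2 was the sole cow above 0, and the difference was −0.30 ± 0.12 (−0.60 to 0.0033). CD72, an inhibitory receptor of B cells, was at −0.19, −0.08 and −0.06 against −0.05, 0.01 and 0.10. It differed by −0.13 ± 0.09, no further from 0 than the control vapA (−0.14). JCHAIN, the joining chain of secreted immunoglobulin, differed by −0.26 ± 0.16.

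IGHM, the heavy chain of immunoglobulin M, had the lowest difference of all named genes and the widest interval. It was at −0.88, −0.63 and 0.48 against −0.21, 1.50 and −0.28, with low-DTH cow 2 the highest and the shared cow the lowest, and differed by −0.68 ± 0.58 (−2.08 to 0.73). The 3 class II genes BOLA-DRB3 (−0.52 ± 0.45), BOLA-DQA2 (−0.33 ± 0.31) and BOLA-DMA (−0.22 ± 0.23) were all lower with overlap. Class II ratios split the high cows, with high-DTH cow 3 at a list mean of 0.26 and the shared cow and high-DTH cow 2 at −0.50 and −0.47. IGCGAMMA, an immunoglobulin gamma constant region under the array's own name, differed by −0.23 ± 0.25. With the odd array turned, low-DTH cow 3 moved from −0.28 to 0.66 for IGHM and from −0.36 to 0.31 for BOLA-DRB3, and the differences were −0.99 ± 0.54 and −0.74 ± 0.34.

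Receptors for immunoglobulin and complement genes leaned the same way, with 6 of 7 lower and a median of −0.21, but 5 of 7 with quantile normalization and a median of −0.09 over arrays 3 to 5 alone. Among all features 37.3% were higher, which leaves most lower. FCGRT, which carries immunoglobulin G across cells, was at −0.34, −0.42 and −0.08 against 0.10, 0.38 and −0.28, where low-DTH cow 3 lay among the high cows, and differed by −0.35 ± 0.19. With the odd array turned it was −0.22 ± 0.28. FCGR1A, a high-affinity receptor, did not overlap but all 6 cows lay within 0.1 of 0 (−0.06, −0.06 and −0.05 against 0.03, −0.02 and −0.01). FCGR2B differed by −0.22 ± 0.13, FCGR3A by −0.21 ± 0.31, and FCER1G, the signalling chain of FCGR3A, by 0.14 ± 0.38.

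Delayed-type reactions are classed in textbooks as type 1 responses, led by T cells that make interferon gamma. Of the 12 measured Th1 and cytotoxic genes 5 were higher and 7 lower (median −0.01, 0 without overlap). Among all features 37.3% were higher and 13.1% did not overlap. IFNG, the interferon that marks type 1 T cells, was at 0.03, −0.05 and 0.01 against 0.10, −0.19 and 0.23 and differed by −0.05 ± 0.13 (−0.35 to 0.26). IL15, a growth factor of natural killer and memory T cells, was at −0.30, −0.05 and −0.49 against −0.04, −0.13 and 0.26, with low-DTH cow 3 the highest and a difference of −0.31 ± 0.16. IL2 differed by −0.10 ± 0.11, its receptor chain IL2RA by −0.09 ± 0.09, and the interleukin 12 genes IL12A and IL12B by 0.01 ± 0.09 and 0.02 ± 0.08.

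Of 15 Th2 and regulatory genes 8 were higher and 7 lower (median 0.01), and the 2 without overlap were the chemokine receptors CCR4 and CCR3 given above. Of all features 37.3% were higher and 4.07% were higher without overlap. STAT6, which passes on the signal of interleukin 4, was at −0.25, −0.23 and −0.03 against −0.03, 0.07 and −0.02 and differed by −0.18 ± 0.10. IL4 differed by −0.02 ± 0.08 (−0.21 to 0.17), IL5 by −0.09 ± 0.08, IL13 by −0.04 ± 0.10 and the suppressive cytokine IL10 by 0.24 ± 0.21. For IL4 and IFNG the intervals of the ratio difference lie within 0.5 of 0. Whether their spots had signal above background is unknown, so a difference in expression is not excluded. In the list of interleukin 6, STAT3 and interleukin 17 genes, IL6 was at 0.22, −0.56 and −0.68 against −0.77, −0.43 and −0.58, with the shared cow alone above 0, and IL17A differed by −0.01 ± 0.10.

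The 11 genes of the TNF family, FAS and apoptosis had a median of −0.05, with 4 higher, 7 lower and 2 without overlap, CD40 and LTB. Of all features 37.3% were higher and 9.03% were lower without overlap. LTB, a lymphotoxin chain needed for lymph node structure, was at 0.11, −0.06 and 0.18 against 0.26, 0.45 and 0.19. High-DTH cow 3 and low-DTH cow 3 were 0.01 apart, and the difference was −0.22 ± 0.11. The survival gene BCL2 differed by −0.27 ± 0.24, with low-DTH cow 3 alone above 0 at 0.60. Among bacterial sensing genes TLR4, the receptor of lipopolysaccharide, was at −0.02, −0.05 and 0.02 against −0.12, −0.14 and −0.26, without overlap, and differed by 0.15 ± 0.09, whereas TLR2 differed by −0.05 ± 0.21 and NOD2 by 0.08 ± 0.08.

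Among endocrine and growth factor genes 2 of 9 were higher (37.3% of all features were) and 7 lower, with a median of −0.04. IGFBP2, a carrier of insulin-like growth factors, was at −0.04, −0.02 and −0.22 against 0.08, 0.16 and 0.08, without overlap, and differed by −0.20 ± 0.09. Growth hormone receptor GHR differed by −0.14 ± 0.14 and PRL, prolactin, by −0.06 ± 0.08. The list was 1 higher and 8 lower with the odd array turned, 4 higher and 5 lower with arrays centred, and 5 higher and 4 lower over arrays 3 to 5. The other genes without overlap were TXLNA, a syntaxin-binding protein, at −0.17, −0.15 and −0.17 against −0.03, −0.06 and −0.02, and the transcription factor NFATC3 at −0.0048, −0.06 and −0.0094 against 0.04, 0.0065 and 0.18, with differences of −0.13 ± 0.08 and −0.10 ± 0.09. Neither difference was further from 0 than that of the control vapA (−0.14).

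Other cell types of blood have markers of their own on the array. Of 5 monocyte genes 3 were higher and 2 lower (median 0.03), while 37.3% of all features were higher. The mean of the monocyte genes lay between −0.22 and −0.05 in the high and between −0.31 and −0.08 in the low cows. CD14, the defining monocyte marker, was at −0.23, −0.02 and 0.22 against 0.15, −0.01 and −0.45 and differed by 0.09 ± 0.19. The neutrophil genes LTF and CXCR2 differed by −0.04 ± 0.22 and 0.03 ± 0.10, with list means between −0.23 and 0.16 in the high and between −0.16 and 0.07 in the low cows. Natural killer cell genes FCGR3A and XCL1 were both lower, with list means between −0.25 and 0.22 in the high and between 0.03 and 0.28 in the low cows. No gene of the platelet and red cell list was measured. Of the B cell markers the list means were between −0.44 and 0.06 in the high and between −0.03 and 0.53 in the low cows, and the part of this in the CD3 and class II values was not tested. The 6 housekeeping genes, B2M among them, had a median of −0.02 as deposited and of −0.12 with the odd array turned, and GAPDH differed by 0.03 ± 0.37 with a range of −0.52 to 0.78 among the low cows.

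**Figure D4:**
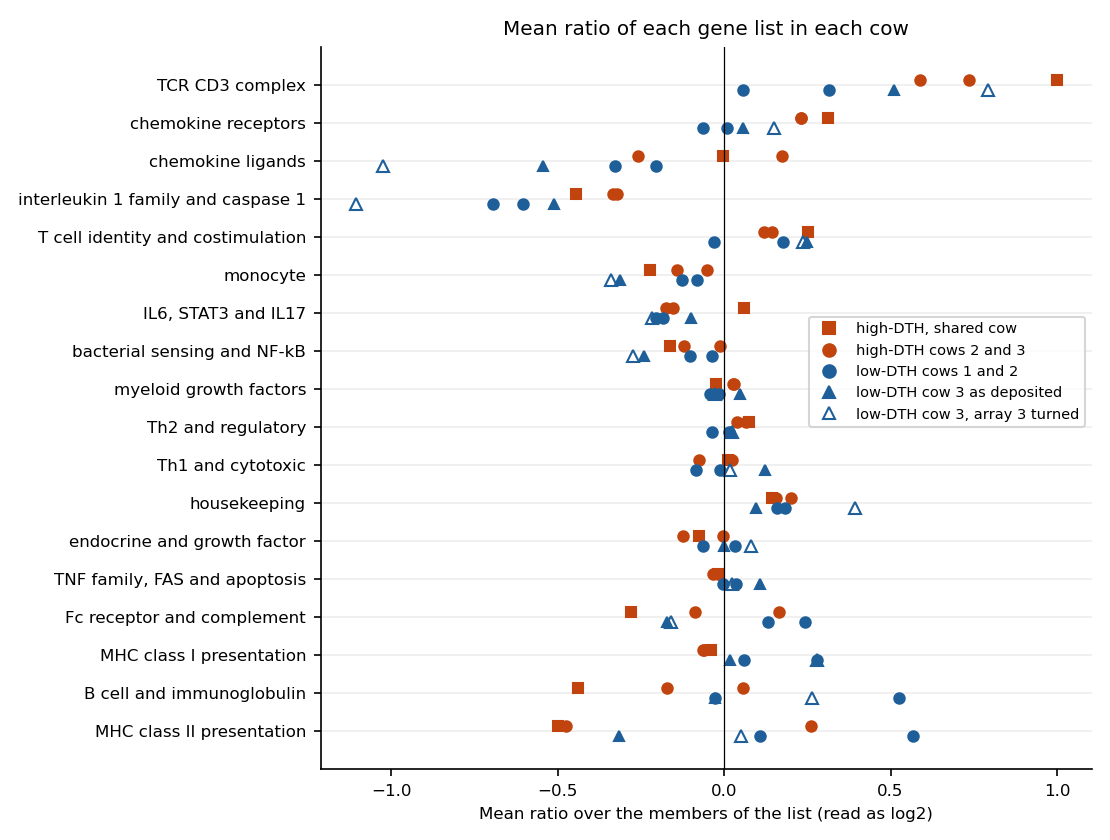
Mean ratio over the members of each of 18 gene lists (horizontal axis, read as log2) in each of the 6 cows, with high-DTH cows in orange, low-DTH cows in blue, and low-DTH cow 3 also as an open triangle with its array 3 turned in sign. The cows of both groups do not overlap for the chemokine receptor, interleukin 1, MHC class I, Th2 and TNF family lists with either sign of that array, while for the CD3 list they do not overlap as deposited (lowest high cow 0.59, highest low cow 0.51) and overlap with the array turned (0.79).

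Cows of the same group were not always the most alike. Over the 141 genes, which are not independent, the shared cow and high-DTH cow 2 had r = 0.70, but high-DTH cow 3 had r = 0.42 and 0.30 with them and r = 0.65 and 0.56 with low-DTH cows 1 and 2. Between cows of different groups r ranged from −0.09 to 0.65, and between low-DTH cows from 0.20 to 0.61. High-DTH cow 3 was closest to the low group in several genes above, among them IL1A, CCL3, CCR3, CCL2 and CD3G. Leaving that cow out gave differences of 1.23 for IL1A, 1.25 for CCL3, 0.81 for CCR3 and 0.70 for CD3G, and without the shared cow they were 1.06, 0.92, 0.46 and 0.47. No single cow changed the sign of any of the 29 genes when left out. For the 22 genes without overlap this outcome was fixed by how they were chosen. Of all 141 genes, 117 to 125 kept their sign when 1 cow was left out.

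Both dye orientations gave the same sign for 24 of the 24 genes of smallest p (96 of all 141 genes). These 24 genes were chosen on the mean of both orientations, so their agreement is partly built in. CD3D differed by 0.46 over arrays with the cow in Alexa647 and by 0.90 over those in Alexa555, and CCR3 by 0.65 and 0.65. The difference between orientations was called for 0 of 565 features (percent called 0, smallest limma adjusted p = 0.919), with 7 features (1.24%) at an unadjusted p under 0.05.

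Between arrays 1 and 2 and arrays 3 to 5 the sign was the same for 20 of the 24 genes and for 78 of all 141. The exceptions were CCL3 (1.49 and −0.18), IL1B (1.02 and −0.21), CXCL8 (1.77 and −1.08) and LTB (−0.33 and 0.06). In arrays 3 to 5 low-DTH cow 3 is represented by its odd array alone. Without that cow, a check chosen after the data were seen, IL1B differed by 0.61 and 0.46, CCL3 by 0.81 and 0.67, CXCL8 by 0.69 and 0.67, and IL1A by 0.98 and 1.07 over the 2 sets. The sets then had the same sign in 28 of 29 genes, against 24 of 29 with all cows. These 29 genes were chosen on values that average both sets, which favours equal signs. No count over all genes is given for this check. The test of the difference between sets called 0 of 565 features (percent called 0, smallest limma adjusted p = 0.968), with 13 (2.30%) at an unadjusted p under 0.05.

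**Figure D5:**
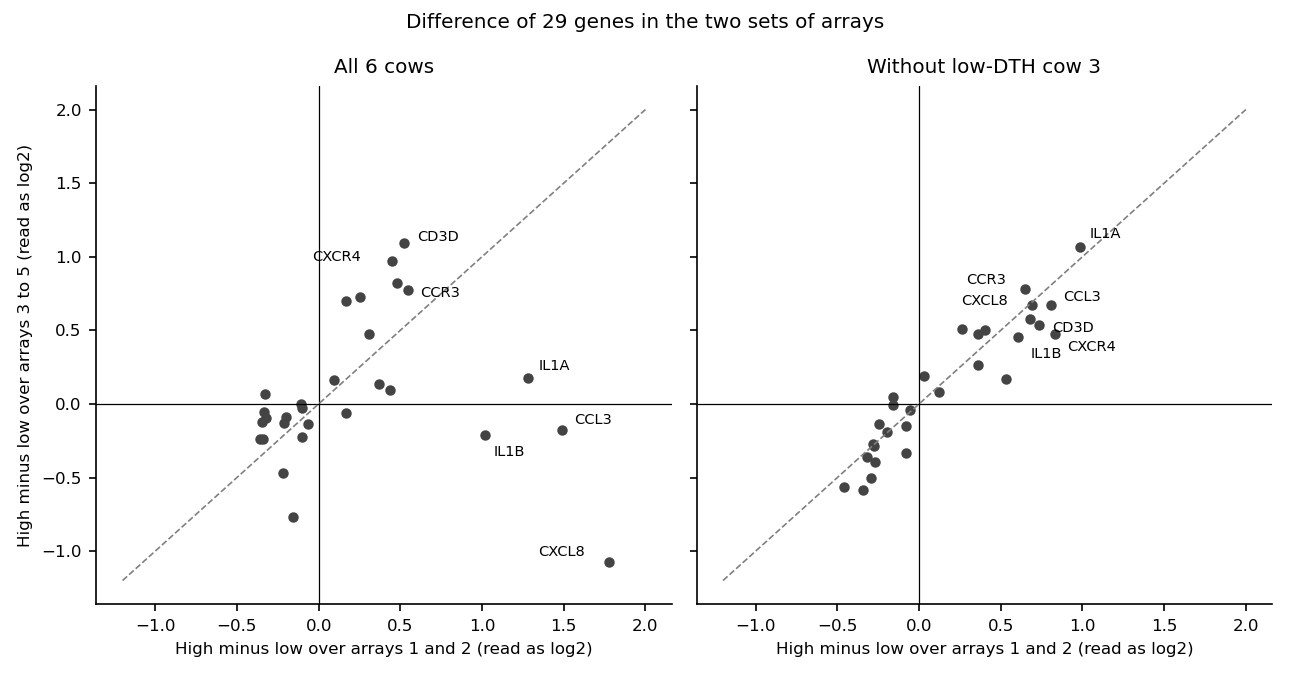
High-DTH minus low-DTH difference (read as log2) of 29 genes over arrays 1 and 2 (horizontal axis) and over arrays 3 to 5 (vertical axis), with all 6 cows on the left and without low-DTH cow 3 on the right, where the dashed line marks equal values. On the left CXCL8, CCL3 and IL1B lie far below the line with negative values over arrays 3 to 5, and on the right all 3 lie above 0 in both sets.

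The unnamed spots gave further differences that no gene could be put to. Named symbols repeat every 420 spots, with 4 copies of 2 neighbouring spots, so unnamed spots were also grouped by this layout into 53 positions of up to 8 spots each. The 43 unnamed spots of unadjusted p under 0.05 sat at only 9 of these positions, and 6 positions held at least 4 of them. At position 81 all 8 spots were higher in high-DTH cows with a median difference of 0.80, and 1 of them did not overlap. At positions 79 and 149 all 8 spots were also higher, with medians of 0.28 and 0.35. At positions 12, 126 and 179 all 8 spots were lower, with medians of −0.31, −0.35 and −0.38. Counted by position instead of by spot, 194 features were tested, of which 0 were called and 21 (10.8%) had an unadjusted p under 0.05. Spots of 1 position are taken to carry the same probe by this layout and are not independent.

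The high minus low difference for DTH was also set against that for antibody response in the fit of all 11 cows, where the shared cow cancels. The high antibody group was the shared cow with the cows labelled high-Ab, and the low group the cows labelled low-Ab. Of 561 features 7 were called (1.25%) and 57 (10.2%) had an unadjusted p under 0.05. The named genes called were IL1B, whose DTH difference exceeded the antibody difference by 1.63 ± 0.25 (limma adjusted p = 0.0393), and IL1A, with 1.44 ± 0.26 (adjusted p = 0.0421). The DTH and antibody differences had opposite signs, with 0.72 and −0.91 for IL1B and 1.02 and −0.43 for IL1A. The 5 other features were unnamed spots, all at layout position 149, with differences between 0.76 and 1.00. In the whole series 3 arrays had a negative mean r with other cows. Of these, 1 was array 3 of low-DTH cow 3, and the others came from antibody cows. With these 3 odd arrays turned the count was 0. IL1A and IL1B then stood at 1.66 ± 0.33 and 1.81 ± 0.38, with limma adjusted p = 0.0592 for both. Leaving out the shared cow or any low-DTH cow also gave 0, with IL1B between 1.45 and 1.78. For CD3D the DTH difference exceeded the antibody difference by 0.06 ± 0.15 and for CD3G by 0.03 ± 0.19, and neither was called. The antibody differences were 0.62 for CD3D and 0.53 for CD3G, beside 0.68 and 0.56 for DTH. For CD3E and CD247 they were 0.41 and 0.59, beside 0.35 and 0.33 for DTH. Higher CD3 ratios were thus not particular to the DTH comparison.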

How the data were processed

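The 24 two-colour arrays came from 6 cows, and the 20 arrays of other cows entered only the comparison of traits. The values deposited by the authors are 1 log2 ratio per spot and array (log2 is assumed), and the sources used here do not state their log base, direction, background correction or normalization. Per the labels, total RNA was amplified before labelling with Alexa647 or Alexa555. Opposite dye orientations of a cow correlated above 0 in most pairs, which is why swapped arrays are treated as turned before deposit.

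Of 1680 spots, 1224 had 1 gene symbol in the platform annotation, 16 several and 440 none. Spots of a gene were averaged, then arrays within a dye orientation, then orientations. Features were tested with limma 3.58.1 in R 4.3.3 (lmFit, eBayes; Benjamini-Hochberg, threshold 0.05), checked on simulated data. Figures were drawn with matplotlib 3.10.9. The number of cows and arrays limits the precision, and the unsettled sign of 1 array also moves the standard errors.

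Genes named are the 24 of smallest p, all without overlap and, per gene list, up to 4 members of smallest and 3 of largest p. Members, lists and rules were chosen with earlier results of these data known. The alternatives tried were other normalizations, array subsets, spot summaries, fits and leaving out cows. The labels state no pairing of cows by number, so none was used in the main fit. Deviations of same-numbered cows had r = −0.23, −0.28 and −0.51. With so few cows these values cannot decide whether the cows were paired. No sequence of a probe was used here.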

Additional observations from a re-analysis of the deposited data

Results flagged for a closer look

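The IL1A and IL1B differences between high-DTH and low-DTH cows stand out because they differed from those for antibody response in a test of the difference itself. The DTH difference exceeded the antibody difference by 1.44 ± 0.26 for IL1A and by 1.63 ± 0.25 for IL1B (limma adjusted p = 0.0421 and 0.0393, over 561 features). Part of each value comes from the antibody cows, whose difference was −0.43 for IL1A and −0.91 for IL1B. The DTH differences were 1.02 and 0.72, and neither was called by itself. Each high group then rests on 2 cows besides the shared cow, and the calls were lost with the 3 arrays of unsettled sign turned or left out and with quantile normalization (adjusted p = 0.163 for both). They were also lost without the shared cow (adjusted p = 0.0518 for both) and without low-DTH cow 1, 2 or 3 (0.0945, 0.144 and 0.119 for IL1A, 0.0541, 0.0600 and 0.0572 for IL1B). Both genes were called without high-DTH cow 2 (1.19 and 1.80) and without high-DTH cow 3 (1.65 and 1.52).

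Single arrays lay far from the other arrays of their cow in 4 of 40 sets, formed by the 8 named genes of smallest p in the 5 cows with 4 or 5 arrays, and chance flags about 1 set in 20. Array 4 of high-DTH cow 2 read 1.26 for CD3G, against 0.83 to 0.85 on its other arrays, and −0.60 for CCL3, against 0.02 to 0.09. Array 3 of high-DTH cow 2 read −0.79 for IL1B, against −0.97 to −0.92. In high-DTH cow 3, array 3 read 0.36 for IL1B, against −0.65 to −0.48. Groups of 3 cows were not tested in this way.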

How the results depend on the processing

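Across 26 alternatives the 29 named genes gave 754 values, of which 746 had the same sign and were not called, as in the main values. Part of this agreement was fixed in advance. The 29 genes were picked from these same data, and some alternatives change only the test or the other features. Leaving out 1 cow also cannot turn the sign of a gene without overlap. Among all named genes, between 104 and 141 kept their sign in an alternative. CCR4 (0.40, adjusted p = 0.0423) and CCR3 (0.66, adjusted p = 0.0386) were called, as the only 2 features, with arrays, which are repeats of 6 cows, as the unit and the cow as a random block, against adjusted p = 0.494 for both with 1 value per cow. Over arrays 3 to 5 alone CCL3 (−0.18), IL1B (−0.21), CXCL8 (−1.08), LTB (0.065) and CCR1 (−0.061) had the opposite sign, 15 features had an unadjusted p under 0.05 instead of 55, and 10 genes instead of 22 had no overlap. Without low-DTH cow 3 and over arrays 3 to 5, FCGR1A was at 0.048 and 33 features had an unadjusted p under 0.05, and over arrays 1 and 2 without that cow 41 genes had no overlap. The count at an unadjusted p under 0.05 was 30 over Alexa555 arrays alone, 14 of 141 among named genes alone and 21 of 194 with unnamed spots averaged by position. With the cow number as a replicate block it was 28, with 0 called, although the numbers share no stated source. Leaving out 1 cow gave 20 to 63 such features, with 0 called each time, and 26 to 44 genes without overlap, since fewer cows overlap less often. The counts of genes without overlap under alternatives have no share over all features beside them. The count at an unadjusted p under 0.05 was lowest without low-DTH cow 2 (20) and without the shared cow (30). Averaging by position and the array sets without low-DTH cow 3 were chosen after seeing the data, and the cause of these shifts was not tested.

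For the comparison of the DTH and antibody differences, 0 instead of 7 features were called with the 3 odd arrays turned or left out and with quantile normalization, and 3 with unnamed spots averaged by position. Leaving out 1 DTH cow gave 0 to 7, with 0 without the shared cow or any low-DTH cow, 3 without high-DTH cow 3 and 7 without high-DTH cow 2. The tests between array sets and between dyes called 0 features under each alternative run. With 3 cows a group and a median SE of 0.11, signal over background of the spots is unknown and differences below about 0.27 lie within a typical interval.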
